A study of Danio rerio with 15 samples.

Results

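The genes described here encode the protein machinery that charges transfer RNAs and drives the ribosome along a message. They were taken from the authors' deposited table of 3164 probe sets by gene title (tRNA synthetase, translation initiation factor or translation elongation factor) or by a symbol starting with eif or eef and a digit. This found 42 probe sets for 37 genes, of 15502 probe sets on the arrays without controls: 11 aminoacyl-tRNA synthetases, 23 initiation factors and 3 elongation factors. Where a gene had more than 1 probe set, the one with the highest mean over the 15 arrays was used. The titles fit the class names for all 37 genes, none of the 11 synthetase titles names a mitochondrial enzyme, and no kinase or repressor of translation was among the members.

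The study followed Müller glia, the radial glia of the retina, through the first hours of photoreceptor regeneration in zebrafish. GFP-positive cells were sorted from dissociated retinas of Tg(gfap:GFP)mi2002 fish, aged 5 to 6 months, in which the gfap promoter drives GFP. Lesioned fish gave cells 8, 16, 24 and 36 hours post-lesion (hpl) after light damage, and fish not treated with light gave the controls (0 hpl). All 5 groups carried the same transgene and were sorted the same way, and each had 3 biological replicates with 1 Affymetrix array per replicate. Values are log2 intensities from robust multi-array averaging (RMA), so a difference of 1 is a 2-fold change.

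Aminoacyl-tRNA synthetases attach each amino acid to its own tRNA, and several of them sit together in a multisynthetase complex. Initiation factors bring the initiator tRNA, the small ribosomal subunit and the capped message together, and elongation factors deliver charged tRNAs and move the ribosome. Müller glia of the adult zebrafish retina are normally quiescent, and after photoreceptor death they re-enter the cell cycle and give rise to progenitors for new neurons.

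Cell type markers were read from the deposited table, where only some carried a name. That table lists only probe sets that changed at least 2-fold at some time, so a steady marker could not appear. These values therefore describe the named markers and do not test the purity of the sort. Of the 6 named Müller glia markers of 14 listed, 5 fell and 1 (glulb, a glutamine synthetase) rose at every time, and their summed linear level went from 9105 to 10220 on the unlesioned arrays to 3566 to 4392 at 36 hpl. The 4 named rod markers of 11 summed to 1102 to 2084 at 0 hpl, 2189 to 4060 at 8 hpl and 566 to 1009 at 36 hpl. The 5 named cone markers of 12 went from 630 to 1172 at 0 hpl to 191 to 364 at 36 hpl, and the 4 named markers of other retinal neurons of 17 stood at 386 to 478, 615 to 1213 and 208 to 318 at 0, 8 and 36 hpl, and the part of such RNA in the members' changes was not tested. The 1 named pigment epithelium marker of 7 went from 78 to 136 at 0 hpl to 24 to 45 at 36 hpl. No microglial and no red blood cell marker was named, so these cells could not be looked for. Replicate arrays of a group correlated at 0.973 to 0.991 over all probe sets.

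**Figure D1:**
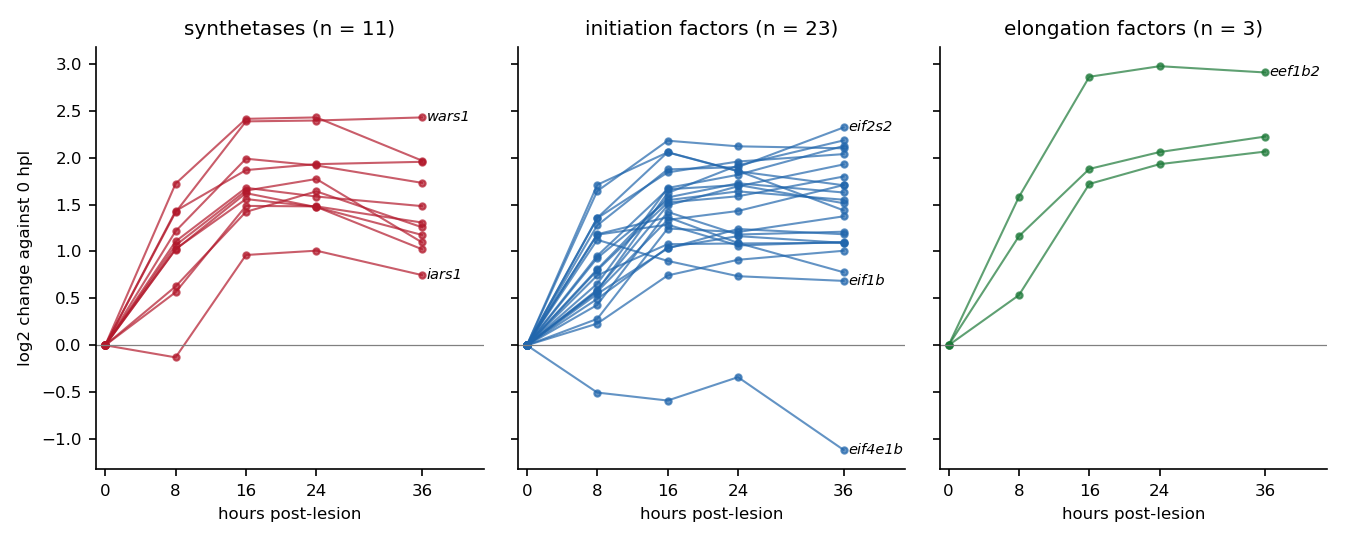
Mean log2 change against 0 hpl (vertical axis) at 8, 16, 24 and 36 hpl (horizontal axis), 1 line per gene, for the 11 synthetases, the 23 initiation factors and the 3 elongation factors, each point from 3 arrays against 3. All lines but that of eif4e1b lie above 0 from 16 hpl on, and eef1b2 reaches 2.97 at 24 hpl.

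Nearly the whole set was higher in lesioned than in unlesioned fish. At 8 hpl 33 of 37 genes were called higher and 0 lower (limma, adjusted p under 0.05), at 16 hpl 36 higher and 1 lower, at 24 hpl 36 higher and 0 lower, and at 36 hpl 36 higher and 1 lower. Over all probe sets the shares called higher were 12.0%, 18.4%, 16.3% and 19.9% and the shares called lower 14.5%, 21.9%, 14.2% and 26.6%. Among the probe sets of the deposited table, the shares called higher were 37.3%, 49.5%, 49.4% and 54.0%. In limma's moderated F test over the whole course all 37 members were called, beside 46.0% of all probe sets. The median member stood 0.95, 1.58, 1.64 and 1.51 above 0 hpl at the 4 times on the log2 scale, where the median of all probe sets stood at -0.10, -0.14, -0.11 and -0.14. The 4 comparisons share the 3 unlesioned arrays. The deposited table lists only probe sets that changed at least 2-fold at some time against the same unlesioned arrays, so membership already required a large change and these counts do not speak for the set. The members nearest to that limit were eif5a and iars1, each at a largest change of 1.01, and the 197 other probe sets on the arrays with a change of at least 2-fold are not in the table. In sorted bulk RNA, a change in RNA per cell and a change in the kinds of cells sorted cannot be told apart.

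Among the synthetases, glutaminyl-tRNA synthetase (qars1) read 4.84, 5.05 and 4.23 on the unlesioned arrays, 6.59, 6.58 and 6.11 at 8 hpl, 7.03, 6.88 and 7.45 at 16 hpl, 7.18, 6.97 and 7.25 at 24 hpl, and 6.67, 6.44 and 6.91 at 36 hpl. Every lesioned array lay above every unlesioned one, and the 36 hpl arrays lay below those of 24 hpl. The change against 0 hpl was 1.72, 2.41, 2.43 and 1.97 (SE 0.215, n = 3 a group, limma adjusted p between 3.81e-05 and 4.26e-07), that is 5.38-fold at its height. A second qars1 probe set gave 1.14, 1.95, 2.11 and 1.87, and its 24 and 36 hpl arrays overlapped.

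Tyrosyl-tRNA synthetase (yars1) read 3.49, 3.32 and 3.55 in unlesioned fish, 4.36, 4.52 and 4.68 at 8 hpl, 4.87, 5.23 and 5.20 at 16 hpl, 5.42, 5.23 and 5.02 at 24 hpl, and 4.37, 4.58 and 4.70 at 36 hpl. Its 36 hpl arrays lay wholly below its 16 and 24 hpl arrays and overlapped those of 8 hpl. The rise peaked at 3.42-fold at 24 hpl and stood at 2.14-fold at 36 hpl (limma adjusted p = 3.48e-05). It starts near the dim end of the scale: yars1, vars1, rars1 and eif2b1 were the 4 members whose unlesioned mean lay under the median of the unlesioned arrays (4.63).

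Valyl-tRNA synthetase (vars1) read 4.16, 4.23 and 4.11 at 0 hpl, 5.42, 5.18 and 4.95 at 8 hpl, 5.73, 5.71 and 5.92 at 16 hpl, 5.70, 5.44 and 5.77 at 24 hpl, and 5.40, 5.28 and 5.35 at 36 hpl. Cysteinyl-tRNA synthetase (cars1) read 6.48, 6.16 and 6.52, then 7.57, 7.50 and 7.17, then 7.97, 7.90 and 7.97, then 7.82, 7.81 and 7.97, and at 36 hpl 7.41, 7.39 and 7.44. Both enzymes were highest at 16 hpl, at 3.08-fold and 2.94-fold, and their 36 hpl arrays lay below every 24 hpl array. The second cars1 probe set gave 0.50, 1.07, 0.92 and 0.65 and was not called at 8 hpl (limma adjusted p = 0.0983). Its 24 and 36 hpl arrays overlapped.

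Tryptophanyl-tRNA synthetase (wars1) and lysyl-tRNA synthetase (kars1) were the 2 synthetases highest at 36 hpl. The changes of wars1 were 1.42, 2.39, 2.40 and 2.43, and those of kars1 were 1.43, 1.87, 1.93 and 1.96. Alanyl-tRNA synthetase (aars1) stood at 1.22, 1.99, 1.92 and 1.73, and both subunits of the phenylalanyl enzyme rose, farsa at 0.63, 1.42, 1.64 and 1.26 and farsb at 1.11, 1.68, 1.58 and 1.48. Arginyl-tRNA synthetase (rars1) gave 0.56, 1.49, 1.48 and 1.31, its 8 hpl call resting on an adjusted p of 0.0493 in limma.

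Isoleucyl-tRNA synthetase (iars1) was the 1 synthetase not called at 8 hpl. It read 5.28, 5.04 and 5.40 unlesioned and 5.00, 5.18 and 5.16 at 8 hpl, and then 6.15, 5.91 and 6.56 at 16 hpl, 6.51, 6.25 and 5.98 at 24 hpl, and 5.94, 5.98 and 6.05 at 36 hpl. The 8 hpl arrays overlapped the unlesioned ones (change -0.13, SE 0.172, limma adjusted p = 0.603), and the later arrays lay above all of both. Between 8 and 16 hpl it gained 1.09, which was the largest step of any synthetase.

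**Figure D2:**
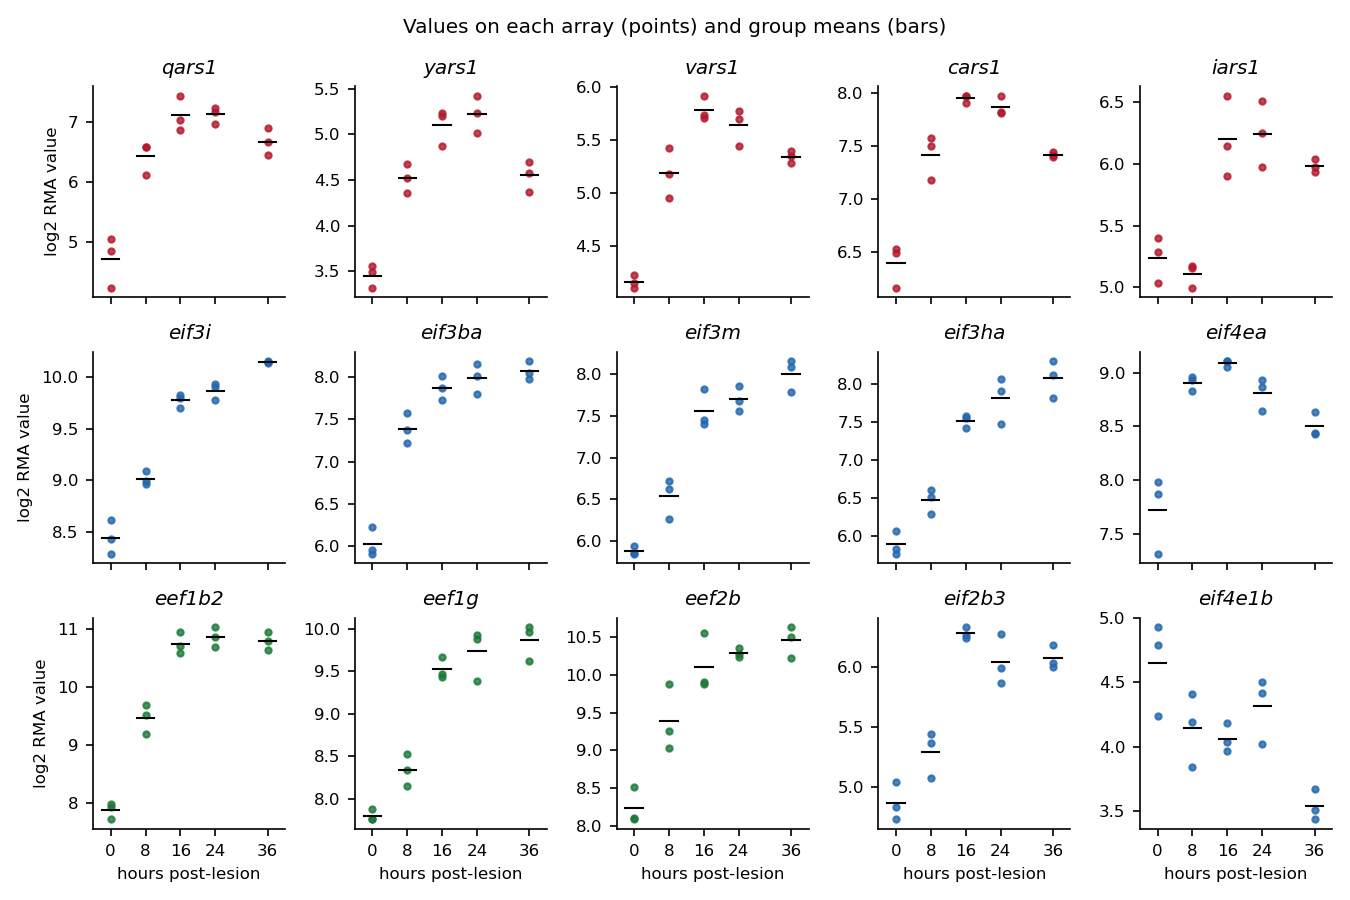
Log2 RMA value (vertical axes, scaled separately per gene) on each of the 15 arrays (points) against hours post-lesion (horizontal axes), with group means as bars, for 5 synthetases (red), 7 initiation factors (blue) and 3 elongation factors (green). The arrays of 16 and 24 hpl lie above all unlesioned arrays in every panel except that of eif4e1b, and the synthetases qars1, yars1, vars1 and cars1 lie lower at 36 than at 24 hpl.

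Of the initiation factors, 8 were subunits of eIF3, the large complex that coats the small ribosomal subunit and recruits the message. All 8 were called higher at all 4 times, with medians of 0.62, 1.55, 1.71 and 1.86. Over the 4 times 12.0% to 19.9% of all probe sets and 37.3% to 54.0% of the deposited ones were called higher. A subunit that changed less than 2-fold could not be listed, so this count describes these 8 and not the complex. The subunit eif3i (deposited as eif3s2) read 8.29, 8.61 and 8.43 unlesioned, 8.96, 8.99 and 9.09 at 8 hpl, 9.70, 9.83 and 9.81 at 16 hpl, 9.78, 9.93 and 9.90 at 24 hpl, and 10.14, 10.15 and 10.16 at 36 hpl. Its groups climbed with no overlap except between 16 and 24 hpl. The change reached 1.71 (SE 0.118, limma adjusted p = 3.2e-08), or 3.26-fold, at 36 hpl.

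The eIF3 subunits eif3m, eif3ha and eif3ba also stood highest at 36 hpl. The arrays of eif3m read 5.85, 5.94 and 5.85, then 6.26, 6.73 and 6.63, then 7.40, 7.45 and 7.82, then 7.56, 7.67 and 7.86, then 7.78, 8.15 and 8.09. Those of eif3ha read 5.83, 6.07 and 5.77, then 6.30, 6.61 and 6.52, then 7.42, 7.55 and 7.58, then 7.47, 7.90 and 8.06, then 8.12, 8.29 and 7.82. In both genes the unlesioned, 8 hpl and 16 hpl arrays formed separate ranges, while the last 3 times overlapped from each to the next. The changes at 36 hpl were 4.36-fold for eif3m and 4.54-fold for eif3ha.

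The core subunit eif3ba had made the largest share of its change by 8 hpl among the eIF3 genes. It read 5.96, 6.23 and 5.91 at 0 hpl, 7.22, 7.37 and 7.57 at 8 hpl, 7.87, 7.74 and 8.02 at 16 hpl, 7.80, 8.16 and 8.02 at 24 hpl, and 8.19, 7.98 and 8.05 at 36 hpl. At 8 hpl it had made 73.5% of its change at 16 hpl, where eif3ha had made 35.9% and eif3m 39.2%. The other eIF3 subunits changed by 1.18 (eif3c), 1.93 (eif3ea), 1.80 (eif3g) and 1.63 (eif3j) at 36 hpl. The probe set of eif3j also carries a second, unnamed gene model and cannot be assigned to eif3j alone.

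The factor eIF2 carries the initiator tRNA to the ribosome, and its alpha subunit is the one that stress kinases phosphorylate. An alpha subunit (eif2s1a, deposited as eif2s1l) changed by 0.93, 1.55, 1.64 and 1.55, and the beta subunit eif2s2 by 1.28, 1.87, 1.90 and 2.32. The other alpha subunit probe set, deposited as eif2s1 and matching more than 1 current gene, was not called at 8 hpl (0.28, limma adjusted p = 0.169) and then stood at 1.24, 1.21 and 1.37. Of the exchange factor eIF2B, which reloads eIF2 with GTP, the gamma subunit eif2b3 read 4.73, 5.04 and 4.83 unlesioned, 5.37, 5.45 and 5.07 at 8 hpl, 6.34, 6.27 and 6.25 at 16 hpl, 5.99, 5.87 and 6.28 at 24 hpl, and 6.00, 6.04 and 6.19 at 36 hpl. Most of its rise came after 8 hpl, and all 16 hpl arrays lay above all 36 hpl arrays. The alpha subunit eif2b1 changed by 0.95, 1.66, 1.71 and 1.51.

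Members of the cap-binding group split. The cap-binding protein eif4ea (deposited as eif4e1a) read 7.87, 7.99 and 7.31 at 0 hpl, 8.93, 8.96 and 8.83 at 8 hpl, 9.11, 9.06 and 9.11 at 16 hpl, 8.87, 8.64 and 8.93 at 24 hpl, and 8.44, 8.43 and 8.64 at 36 hpl. It had made 86.6% of its 16 hpl change by 8 hpl, and its 36 hpl arrays lay below the lowest 24 hpl array. Its change was 1.36 at 16 hpl and 0.78 at 36 hpl. The difference of -0.59 between those times had a limma adjusted p of 0.0287 in a comparison added after the data were seen, and it was not called lower with the hybridisation-control scaling. The RNA helicase eif4a1a, which unwinds the message leader, had most of its rise by 8 hpl (1.71, 2.06, 1.85 and 1.71), and so had the scaffold relative eif4g2a (0.74, 1.08, 1.08 and 1.09). A second eif4g2a probe set gave 1.29, 1.53, 1.35 and 1.53. The helicase paralogue eif4a3, a core protein of the exon junction complex, changed by 0.49, 1.04, 1.16 and 1.09.

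The member that fell was eif4e1b, in zebrafish a germline-enriched relative of the cap-binding protein. It read 4.93, 4.79 and 4.24 on the unlesioned arrays, 3.84, 4.19 and 4.41 at 8 hpl, 3.97, 4.18 and 4.04 at 16 hpl, 4.50, 4.42 and 4.02 at 24 hpl, and 3.51, 3.67 and 3.43 at 36 hpl. The unlesioned arrays overlapped those of 8 and 24 hpl and lay above all of 16 and 36 hpl. The change was -0.50, -0.59, -0.34 and -1.11 (SE 0.192), called by limma at 16 hpl (adjusted p = 0.0238) and 36 hpl (adjusted p = 0.000248). Its mean over all arrays (4.14) is under the median of the unlesioned arrays, so these are changes near the dim end of the scale. With arrays scaled on the spiked hybridisation controls the 16 hpl change was -0.20 and no longer called. The 16 hpl call was also lost with median centring and with quantile normalisation repeated. It was lost as well without replicate 1 or 2 of 0 hpl or replicate 1 or 3 of 16 hpl.

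The remaining initiation factors act at the start codon, at subunit joining or on stalled ribosomes. Scanning factors eif1axa and eif1b stood at 1.36 and 1.12 at 8 hpl, where a second eif1axa probe set gave 0.85 and then 1.05, 1.14 and 0.81, and eif1b was the member of the set that was highest at 8 hpl, after which it stood at 0.90, 0.74 and 0.69. The factor eif5, which triggers GTP hydrolysis by eIF2, had made 91.7% of its 16 hpl change by 8 hpl (1.18 at 8 hpl and 1.28 at 16 hpl). The factor eif6, which keeps the large ribosomal subunit from joining too soon and acts in its maturation, changed by 1.64, 2.18, 2.12 and 2.10. For eif5a, the hypusine-carrying factor that helps stalled ribosomes, 2 probe sets disagreed in size. The one with the higher mean gave 0.23, 0.74, 0.91 and 1.01 and was not called at 8 hpl (limma adjusted p = 0.295), and the other gave 1.04, 1.87, 2.09 and 2.15.

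The largest change of all members was that of eef1b2, a subunit of the exchange factor that reloads eEF1A with GTP. It read 7.72, 7.94 and 7.98 unlesioned, 9.19, 9.51 and 9.69 at 8 hpl, 10.58, 10.69 and 10.95 at 16 hpl, 10.68, 10.86 and 11.02 at 24 hpl, and 10.63, 10.95 and 10.79 at 36 hpl. The unlesioned, 8 hpl and later arrays formed 3 separate ranges, and the last 3 times overlapped. The change was 1.58, 2.86, 2.97 and 2.91 (SE 0.16), 7.86-fold at 24 hpl.

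Its partner subunit eef1g was called higher at all 4 times. It read 7.77, 7.89 and 7.76 at 0 hpl, 8.34, 8.52 and 8.15 at 8 hpl, 9.47, 9.66 and 9.43 at 16 hpl, 9.39, 9.88 and 9.93 at 24 hpl, and 10.02, 9.96 and 9.63 at 36 hpl. At 8 hpl the change was 0.53 (limma adjusted p = 0.0265), which is 31.1% of its 16 hpl change, where eef1b2 had made 55.3%, and the difference between these shares was not tested. The translocase eef2b (deposited as eef2l) read 8.08, 8.11 and 8.51, then 9.04, 9.26 and 9.88, then 9.91, 9.88 and 10.55, then 10.36, 10.24 and 10.28, then 10.23, 10.51 and 10.63. Its arrays of 8 and 16 hpl met at 9.88, and it ended 4.67-fold above the unlesioned arrays.

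The step from 8 to 16 hpl asked whether the rise was complete by the earliest time. For 24 of 37 members it was not: they were called higher at 16 than at 8 hpl, and 0 were called lower (limma). The rise of the other members was not shown to be complete. In all, 35 of 37 steps lay above 0, and 31 had an unadjusted limma p under 0.05. Of all probe sets 5.48% were called higher and 3.12% lower, and 20.1% of the deposited probe sets were called higher. Only 18 members were called with at least a 2-fold change at 8 hpl. Members below 2-fold at 8 hpl could be listed only through a later time, so the selection itself favoured a later rise. The count of 24 therefore describes these genes and does not speak for the set. The members' median step was 0.69, beside -0.01 for all probe sets. By class, 9 of 11 synthetases and 15 of 26 factors were called, among them all 8 eIF3 subunits and both eIF2B subunits, but none of the 5 eIF4 genes. The largest steps were eef1b2 at 1.28, eef1g at 1.19, iars1 at 1.09, eif3ha at 1.04 and eif3m at 1.02. The count fell to 15 without replicate 2 of 8 hpl and to 11 without replicate 3 of 16 hpl. Calls also depended on the probe set. The second probe sets of cars1 (0.57) and eif1axa (0.20) were not called in this step. Those of qars1 (0.81) and eif5a (0.83) were called higher, where the ones used were not. With probe sets of a gene averaged the count was 25. In the same step limma called 3 of 4 named rod markers and 3 of 4 named markers of other retinal neurons lower. It called 0 of 5 named cone markers and 0 of 6 named Müller glia markers. The part of such RNA in the members' step was not tested.

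Between 16 and 24 hpl no member was called by limma, and 0 of 37 had an unadjusted p under 0.05. Few probe sets moved in that step: 0.29% of all were called higher and 0.271% lower. The member changes ran from -0.28 (eif4ea) to 0.29 (eif3ha), with a median of 0.05.

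Between 24 and 36 hpl 2 members were called lower and 0 higher, against 2.03% of all probe sets called lower and 3.11% called higher. These were yars1, which fell by 0.68 (SE 0.153, limma adjusted p = 0.0174), and eif4e1b, which fell by 0.78 (SE 0.192, limma adjusted p = 0.0291). Both calls were lost with the hybridisation-control scaling (-0.47 and -0.57), and also without any of 4 arrays (replicates 1 and 2 of 24 hpl and of 36 hpl), while without replicate 3 of 36 hpl the count was 1. All 36 hpl arrays lay below all 24 hpl arrays for 7 members and above them for 1, shares that over all probe sets were 14.5% and 11.1%. The 7 were the synthetases cars1, farsa, qars1, vars1 and yars1 and the factors eif4ea and eif4e1b, and the 1 above was eif3i. On the second probe sets of cars1 (-0.27) and qars1 (-0.24) the 24 and 36 hpl arrays overlapped. Against 16 hpl, a comparison added after the data were seen, limma called 3 members lower at 36 hpl, beside 3.66% of all probe sets. These were yars1 (-0.55), cars1 (-0.53) and eif4ea (-0.59). The second cars1 probe set gave -0.42 and was not called, and with probe sets of a gene averaged the count was 2. With the hybridisation-control scaling 0 members were called lower in that comparison and 1 factor was called higher. The count of members called was 0 without replicate 3 of 16 hpl or without replicate 1 or 2 of 36 hpl, 1 without replicate 1 or 2 of 16 hpl, and 5 and 6 without replicates 3 and 1 of 8 hpl.

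**Figure D3:**
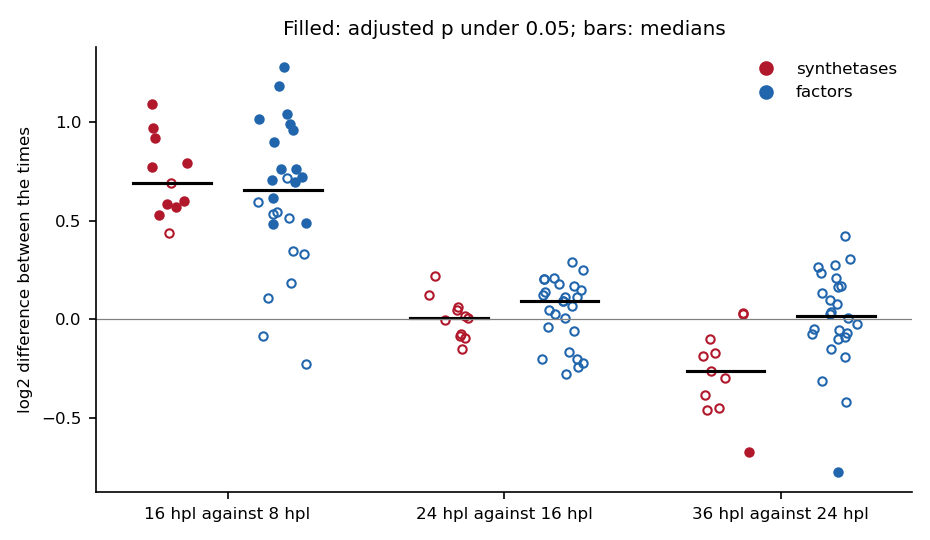
Log2 difference between neighbouring times (vertical axis) for each of the 11 synthetases (red) and 26 factors (blue), filled where limma's adjusted p was under 0.05, with class medians as bars. From 24 to 36 hpl the synthetase median is -0.26 and the factor median 0.02.

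Synthetases were then set against initiation and elongation factors. Both classes hold only genes listed through a change of at least 2-fold against the same unlesioned arrays. The medians therefore describe these genes and not all synthetases and factors. Class medians of the change against 0 hpl were 1.06, 1.65, 1.64 and 1.31 for the 11 synthetases and 0.81, 1.53, 1.67 and 1.59 for the 26 factors. The difference, synthetases minus factors, was thus 0.26 at 8 hpl, 0.12 at 16 hpl, -0.03 at 24 hpl and -0.28 at 36 hpl. A related score was taken within each array, from class medians of the value minus the gene's own 0 hpl mean. This score was 0.10, -0.14 and 0.07 at 0 hpl, 0.25, 0.23 and 0.39 at 8 hpl, 0.07, 0.14 and 0.23 at 16 hpl, 0.06, 0.09 and 0.03 at 24 hpl, and -0.20, -0.55 and -0.10 at 36 hpl. At 24 hpl it was positive on every array, where the difference of median changes was -0.03. On this centred scale the 8 hpl arrays lay above all unlesioned arrays, and those of 16 and 24 hpl overlapped them. Those of 36 hpl lay below all of 24 hpl but overlapped the unlesioned ones. Without the centring, the class medians differed by -1.669, -1.897 and -2.025 at 8 hpl and by -1.984, -2.316 and -1.932 at 0 hpl. They differed by -1.797, -2.183 and -2.012 at 36 hpl and by -1.889, -1.57 and -1.537 at 24 hpl. Both pairs of times then overlapped, so the separations depend on the centring. No test was made of a score over chosen genes. The 36 hpl difference was -0.08 without replicate 1 of 0 hpl and -0.05 with class means in place of medians.

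The classes were also compared between 36 and 24 hpl directly, a comparison added after the data were seen. It does not use the unlesioned arrays, though the choice of the members did. There 9 of 11 synthetases and 12 of 26 factors lay below 0. The share of all probe sets below 0 was not counted, and their median was -0.05. The class medians were -0.26 and 0.02. Their difference of -0.28 stayed between -0.34 and -0.23 when each array was left out in turn. With the hybridisation-control scaling the medians were -0.06 and 0.22, where the median of all probe sets was 0.15. This scaling adds 1 constant to every value of an array, so it moves both medians alike and cannot change the difference between them. Of the lesioned times, 36 hpl gave the highest mean for 2 of 11 synthetases, 12 of 26 factors and, among these, 6 of 8 eIF3 subunits. The same share over all probe sets was not counted, so these counts only describe the members.

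**Figure D4:**
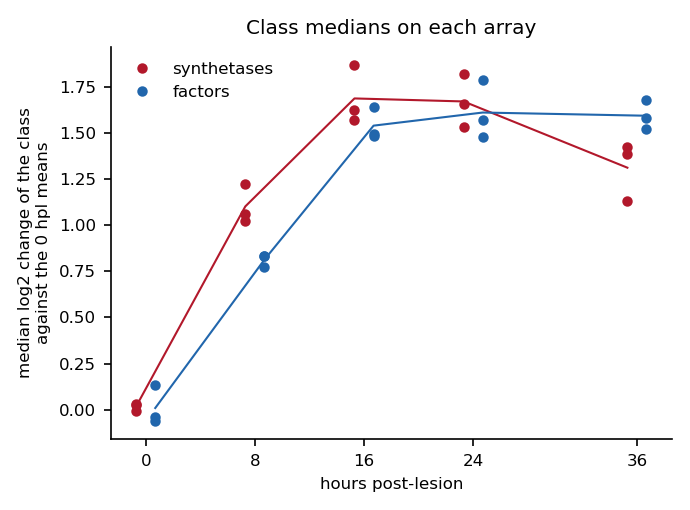
Median log2 change against the 0 hpl means (vertical axis) over the 11 synthetases (red) and the 26 factors (blue) on each of the 15 arrays (points, shifted sideways for clarity) against hours post-lesion (horizontal axis), with lines through the group means. At 36 hpl the synthetase arrays span 1.13 to 1.42 and the factor arrays 1.52 to 1.68.

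Several genes of the same families were missed by the title and symbol rule because the table names them by clone or older symbol, and they were found through current RefSeq names after their values had been seen. All genes found this way were also listed only through a 2-fold change, so they are no independent check of the members. The synthetases for glycine (gars1), histidine (hars) and threonine (tars1) were called higher at all 4 times. Over these times 12.0% to 19.9% of all probe sets and 37.3% to 54.0% of the deposited ones were called higher. The changes of gars1 were 1.68, 1.91, 1.69 and 1.27, those of hars 1.62, 2.22, 2.21 and 2.08, and those of tars1 1.38, 2.13, 2.10 and 1.52. From 24 to 36 hpl all 3 stood lower (-0.42, -0.14 and -0.58) and none was called. The 9 factors found this way had a median of -0.01 in that step. Among them eef1a1l1, the eEF1A protein that delivers charged tRNAs, changed by 0.83, 1.52, 1.62 and 1.63, and eef2a.1, another translocase, by 1.82, 2.88, 2.38 and 2.15. The unlesioned mean of eef2a.1 (3.81) lay under the median of the unlesioned arrays (4.63), near the dim end of the scale.

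The same names brought in the repressors that bind eIF4E and hold back translation when mTORC1 is inactive. The repressor eif4ebp3l read 8.78, 8.14 and 7.90 unlesioned, 6.94, 7.02 and 6.66 at 8 hpl, 8.18, 8.60 and 8.21 at 16 hpl, 8.43, 8.26 and 8.39 at 24 hpl, and 8.75, 8.73 and 8.78 at 36 hpl. It was lowest at 8 hpl, where its arrays lay below all others, with a change of -1.39 (SE 0.192, limma adjusted p = 8.93e-05) and a return by 1.45 to 16 hpl. At 36 hpl its mean stood 0.49 above the unlesioned mean, with a limma adjusted p of 0.0485, and the arrays of these times overlapped. Its relative eif4ebp1 stood at 0.62, 1.04, 1.08 and 0.62 and was called higher at all 4 times. The methyltransferase eef1akmt2, which modifies eEF1A in mammals, was called lower at all 4 times (-0.81, -0.57, -0.82 and -1.06). Its mean was 4.01 unlesioned and 2.95 at 36 hpl, near the dim end of the scale. Its 16 hpl arrays overlapped the unlesioned ones.

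Genes of neighbouring steps were read from lists of which only part was named in the deposited table, so the choice by 2-fold change applies to them as well. Their counts stand beside 37.3%, 49.5%, 49.4% and 54.0% of the deposited probe sets called higher at the 4 times, and beside 12.0% to 19.9% of all probe sets called higher and 14.2% to 26.6% called lower. They are descriptions of these genes, and nothing is read from them about a list. For termination, recycling and poly(A) binding, 13 of 27 genes were named, with 10, 11, 12 and 12 called higher and 1, 1, 0 and 1 lower at the 4 times. The reinitiation partners mcts1 and denr reached 2.73 and 1.97 at 36 hpl, the release factor gspt1 1.55 and the poly(A)-binding protein pabpc4 1.36. The gene called lower was pdcd4a, an inhibitor of the eIF4A helicase, at -0.83, -0.82, -0.50 (not called) and -1.06. The hydroxylase dohh, which completes the hypusine of eIF5A, stood at 1.18, 1.64, 1.65 and 1.39.

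For the multisynthetase scaffold and tRNA maturation, 6 of 28 genes were named, with 4, 6, 6 and 5 called higher and 0 lower, beside the same 37.3% to 54.0% of deposited probe sets called higher. The scaffold protein eef1e1 was at 0.13 at 8 hpl, not called, and then at 1.12, 1.35 and 1.44, and aimp2 stood at 1.01, 1.42, 1.62 and 1.56. The RNA chaperone ssb, which binds new tRNA transcripts, changed by 1.18, 2.03, 2.20 and 1.77, and the methyltransferase cofactor trmt112 by 0.29 (not called), 1.75, 1.85 and 1.67.

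The lists on the amino acid response, mTORC1 and the Myc family held genes called in both directions. Beside them stand the same shares of all probe sets, and of deposited probe sets called higher. The share of deposited probe sets called lower is not given here. Of the amino acid response and ATF4 targets 8 of 36 were named, with 5 called higher at every time and 3, 1, 3 and 3 lower. The transcription factor atf4a was at 1.56, 1.79, 1.61 and 1.73, atf3 at 2.50, 1.59, 1.60 and 1.74, and the proline synthesis enzyme aldh18a1 at 1.25, 1.90, 1.69 and 1.48, while the serine synthesis enzyme phgdh fell by 1.29, 0.99, 1.26 and 1.19. In the mTORC1 list 5 of 27 were named: lamtor2 and rragca, which recruit the kinase to lysosomes, were called higher at every time, and sesn3 and deptor, which restrain it, lower at every time. The inhibitor tsc1b was called lower from 16 hpl on (-1.02, -0.94 and -0.60). Changes of sesn3 were -2.25, -1.88, -1.63 and -1.37, and those of deptor -1.36, -1.41, -1.81 and -1.06. Of the Myc family 4 of 12 were named, with 3 called higher and the antagonist mxi1 lower at every time. Here mych stood at 3.46, 3.02, 3.19 and 2.44 and mycb at 2.02, 3.01, 2.37 and 1.25.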

How the data were processed

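The authors deposited log2 intensities per probe set from RMA, per the submitters' processing notes; no source used here gives its implementation or version. The authors also deposited a table of signed fold changes (a ratio, written as minus its inverse for a fall) and p-values against 0 hpl. These folds matched the group means of the log2 values. The column of smallest p-values over the 4 times is headed FDRCI pvalue, and no source used here describes the test. All 15502 probe sets without controls were fitted over 15 arrays in 5 groups with limma 3.58.1 (R 4.3.3, lmFit and eBayes), p-values being adjusted by Benjamini-Hochberg over all of them with a threshold of 0.05; the script was tested on simulated data. Array number (3 a group) limits the precision, and depth has no meaning for these files. Gene symbols were updated through RefSeq: 18 members kept their symbol, 18 matched by synonym and 1 matched several genes. Members and lists were chosen with earlier results of these data known. Values on every array are given for the members with the smallest adjusted p of a moderated F test over the course in each class (up to 4), for any member lower than 0 hpl, for the 3 with the smallest adjusted p in each step, and for iars1 and eif4ebp3l, chosen after their values were seen. Alternatives were other scalings, filters, variance models, thresholds, a replicate block, single arrays left out and other probe sets. Promoter motifs and protein sequences were not analysed here.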

Additional observations from a re-analysis of the deposited data

Results flagged for a closer look

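The changes against 0 hpl differed between neighbouring times, by limma's direct contrast of those times, for 24 members between 8 and 16 hpl and for 2 members between 24 and 36 hpl. The 2 late ones were eif4e1b, with a difference of -0.775, and yars1, with a difference of -0.675 on the log2 scale. Both late calls were lost with the hybridisation-control scaling. The 24 all stood higher at 16 hpl, and the choice by 2-fold change favoured such a later rise. Of all probe sets, 5.48% were called higher and 3.12% lower from 8 to 16 hpl. From 24 to 36 hpl 3.11% were called higher and 2.03% lower, so these counts only describe the members. Each contrast compares 3 arrays with 3.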

How the results depend on the processing

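The counts of members called against 0 hpl were 33, 37, 36 and 37 at 8, 16, 24 and 36 hpl and ranged over 27 to 33, 36 to 37 and 36 to 37 at the first 3 times when arrays were left out in turn, and 37 each time at 36 hpl. At least 2-fold was reached by 18 at 8 hpl. By the authors' deposited p-values under 0.05 the counts were 0, 4, 4 and 9 of 37 members. Over the whole deposited table they were 61, 213, 275 and 326 of 3164 probe sets. The test behind these p-values is not given. The deposited p of eif4ea at 24 hpl was 0.998 at a 2.13-fold rise that limma called higher. These counts and those of limma may therefore not answer the same question, and their difference is not read as a conflict. From 8 to 16 hpl the 24 calls became 11 with the compared groups alone, 11 at an adjusted p under 0.01, 5 at 2-fold, and 11 to 25 with arrays left out. From 16 to 24 hpl the count was 0 with each array left out. From 24 to 36 hpl the 2 calls became 0 with the hybridisation-control scaling, 1 with median centring, 0 at an adjusted p under 0.01, 0 at 2-fold, and 0 to 3 with arrays left out. Synthetases minus factors moved at 8 hpl from 0.26 to 0.51 with quantile normalisation repeated and 0.151 with class means, and to 0.159 to 0.335 with arrays left out (0.159 without replicate 2 of 0 hpl). At 16 hpl it moved from 0.12 to 0.33 with that setting, 0.25 with class means and 0.25 with the genes found by updated names, an alternative chosen after the data were seen, and was 0.017 (without replicate 2 of 0 hpl) to 0.195 with arrays left out. At 24 hpl these 3 settings gave 0.093, 0.217 and 0.091 in place of -0.03, and arrays left out -0.079 to 0.025. At 36 hpl class means gave -0.054 and quantile normalisation repeated -0.109 in place of -0.28, and leaving out arrays gave -0.376 to -0.079. The causes of these moves were not tested.

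The spiked controls averaged 11.95 to 12.13 on the unlesioned and 11.39 to 11.94 on the lesioned arrays, so scaling on their 18 probe sets moved the median of all probe sets from -0.10, -0.14, -0.11 and -0.14 to 0.19, 0.25, 0.21 and 0.38. The 169 calls of single members were each repeated under alternative settings, which here left out the stricter thresholds. These gave 3887 results, of which 3698 kept the call, 189 lost it and 0 changed direction. The losses touched 7 of 33 genes called at 8 hpl, 1 of 37 at 16 hpl and 0 at 24 and 36 hpl. In the step from 8 to 16 hpl they touched 14 of 24, and in the last step 2 of 2. With a change of at least 2-fold also required, 18, 33, 34 and 34 members stayed called against 0 hpl. In the step from 8 to 16 hpl 5 stayed called.

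Arrays with the same replicate number did not deviate together (r from -0.34 to 0.40, median -0.06, -0.03 and -0.07 for the 3 numbers, against 0.01 between numbers). With replicate number as a block the counts were 31, 37, 36 and 37 against 0 hpl and 23, 0 and 2 in the 3 steps. Promoter motifs were not run.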
